A study of Mus musculus with 16 samples.

Results

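The 39 genes described here encode the contractile apparatus of skeletal muscle and its closest partners. They comprise 11 genes of fast fibres, 8 of slow fibres, 11 of the frame that both fibre types share, 2 developmental or cardiac isoforms, 3 stretch-responsive genes of the Z-disc and 4 genes of oxygen and energy supply. They were chosen by name, as the array probes that are no controls and whose RefSeq accession maps to the listed symbols. All 39 were among the 24828 genes tested, and all 39 were well above background on all 16 arrays. They had 62 probes in all, and the brightest probe of each gene was used unless stated otherwise. The muscle was tibialis anterior, a mainly fast muscle at the front of the lower leg. Mouse dams either ate normally (control) or had their food cut by 50% during week 3 of pregnancy (undernourished), and the offspring later ate ad libitum (AL) or were calorie restricted (CR). Each of the 4 groups (control AL and control CR, undernourished AL and undernourished CR) held 8 mice, combined 2 by 2 into 4 pools with 1 array per pool. Strain, sex, age, litter and the degree of calorie restriction are not given in the sources used here, so pools may share a litter and p-values measure the spread between pools.

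The arrays were 1-colour, and a level below is the log2 signal of a probe minus the 75th percentile of all probes on that array. The AL arrays were scanned on 1 day and the CR arrays on another, on separate slides, so that offspring diet and scan day cannot be told apart. Both maternal diets lay on every slide. Of the 8 markers of skeletal muscle, all were well above background on every array, with a median level of 7.99 to 8.56. Transcripts of other tissues differed between the groups. The median level of 20 brain markers was -1.43 to 1.23 in control AL and -2.27 to -0.80 in undernourished AL against -6.44 to -5.82 on the 8 CR arrays. The median of 13 measured skin markers reached 1.42 in control AL, and that of 5 liver markers was -0.94 in undernourished AL replicate 3 against -5.52 to -3.89 on the other arrays. The medians of 5 measured leukocyte markers were -2.85 to -1.90 in control AL and -3.70 to -3.25 in control CR, which did not overlap, and -3.42 to -2.10 and -3.43 to -2.82 in undernourished AL and CR, which did. The part of these transcripts in the differences below was not tested, and values without the arrays that carried most skin or liver signal are given where they change a call.

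Muscle contracts by the sliding of filaments. In a sarcomere, myosin thick filaments pull on actin thin filaments, which are anchored in Z-discs. Calcium released in the fibre binds troponin C, and troponins I and T and tropomyosin then move on the thin filament and free the sites for myosin. Fast and slow fibres carry different genes for most of these parts, so that a muscle's mixture of isoforms follows its mixture of fibres. Titin spans the sarcomere as an elastic spring from Z-disc to midline, nebulin runs along the thin filament, and leiomodins start and lengthen thin filaments. In a bulk sample, fewer fibres of a type and less RNA per fibre cannot be told apart.

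These are among the brightest probes of the array, and the direction of their differences between diets depended on how arrays were scaled. Of the 39 genes, 20 lay in the brightest 1% of kept probes on all 16 arrays, among them 10 of the 11 fast genes but 1 of the 8 slow genes, Myl3. No member was saturated, although the highest log2 signal, 19.16, came close to the scanner's limit of 19.29 to 19.31. The 75th percentile itself was higher on the CR arrays, by 0.43 on the log2 scale in control and 0.59 in undernourished offspring. Before any scaling, the 20 brightest genes differed between CR and AL by a median of 0.19 (-0.30 to 0.66) in control and 0.16 (-0.61 to 0.59) in undernourished offspring, with 15 of 20 higher in CR in each. After scaling to the 75th percentile, most were lower in CR. The counts of calls are therefore also given under 4 other scalings of the same arrays, and single genes' values where stated: the median of well-measured probes, normexp background correction before the 75th percentile, quantile normalization, and the authors' deposited log2 values.

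The first question was how calorie restriction changed these genes in offspring of control dams. Under the 75th percentile, 10 of the 39 genes were called at an adjusted p under 0.05 (limma, Benjamini-Hochberg over 24828 genes), against a background of 32.3% of all genes. Ampd1, Lmod3, Myl4 and Mybpc1 rose, and Lmod2, Tnnc2, Ttn, Tcap, Neb and Myl1 fell. The 4 genes that rose stand against 17.3% of all genes called higher, and the 6 that fell against 15% called lower. The median difference over the 39 genes was -0.23, against 0.07 over all genes. In offspring of undernourished dams, 10 of 39 were again called, against a background of 20.4%. There Ampd1 rose, against 10.5% of all genes called higher. Tnnc2, Mylk2, Neb, Tcap, Ttn, Tnni2, Myl1, Mybpc2 and Myl3 fell, against 9.85% called lower. The median over the 39 was -0.40, against -0.003 over all genes. Tnnc2, Ttn, Neb, Tcap, Myl1 and Ampd1 were called in both comparisons. The comparisons share no group but are not independent, since both carry the same split by scan day and the fit pools the spread of all arrays. The Myl1 call in control offspring, for example, was lost without undernourished AL replicate 2 (limma adjusted p = 0.0595). The share of all genes called in both comparisons is not given here.

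**Figure D1:**
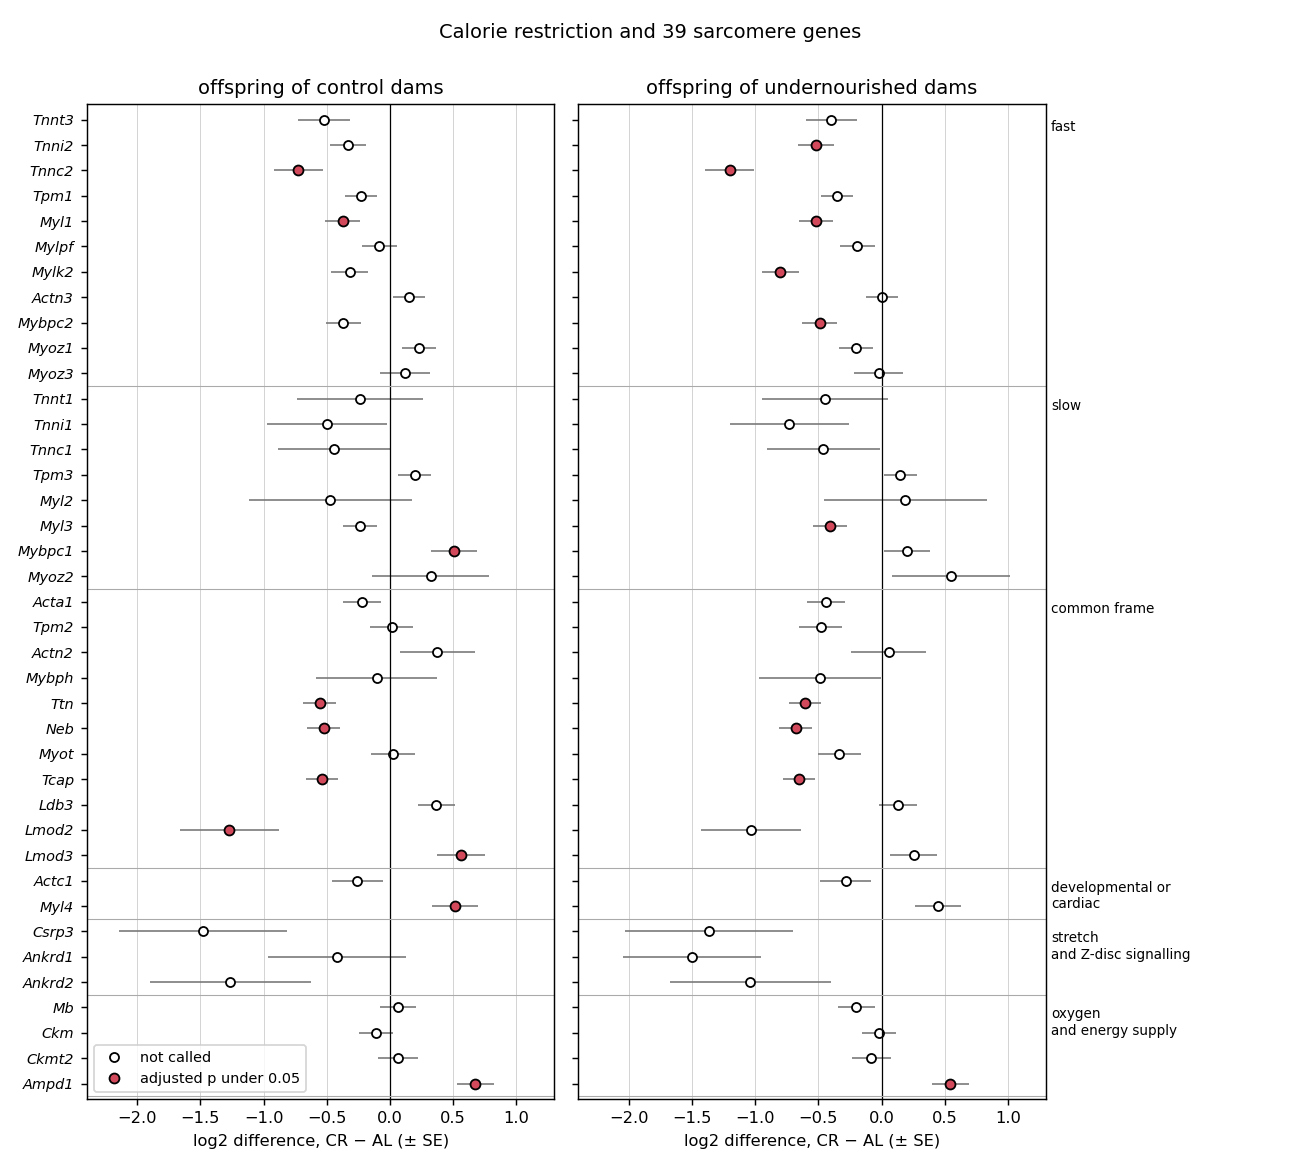
Log2 difference between calorie restricted (CR) and ad libitum (AL) offspring for each of the 39 genes, with the standard error of the limma fit, grouped by role, under the 75th percentile scaling. Red points passed an adjusted p of 0.05; the fast genes lie mostly left of 0 here, with medians of -0.32 and -0.40, whereas under the authors' log2 values their medians were 0.13 and 0.12.

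Read relative to all genes, the members' median lay lower in CR under each of the 5 scalings. In control offspring the members' median minus that of all genes was -0.29 under the 75th percentile, -0.29 under the median, -0.20 under quantile normalization, -0.08 in the authors' values and -0.04 under normexp. The same quantity in undernourished offspring was -0.40, -0.40, -0.12, -0.06 and -0.08. For the fast genes alone it was below 0 throughout, at -0.40 to -0.10. For the slow genes it was -0.51 to -0.04 in control offspring. In undernourished offspring the slow genes stood at 0.24 in the authors' values and 0.22 under normexp, and at -0.16 to -0.13 otherwise. The slow medians themselves were -0.24 and -0.13 under the 75th percentile. Under quantile normalization the slow median in control offspring was -0.35, against -0.02 for the fast genes. The counts of calls moved much more. In the authors' values the median of all genes itself stood at 0.29 and 0.24, and 16 members were called higher and 0 lower in control offspring, 15 higher and 1 lower in undernourished offspring. Quantile normalization called 2 higher and 5 lower, and 1 higher and 5 lower. Without the 5 arrays that carried most skin or liver signal, 1 control AL array (replicate 4), 4 control CR arrays and 3 arrays of each undernourished group were left, and the lone array was assumed to vary like the others. In that fit, 0 members were called higher and 1 lower (Neb) in control offspring, and 0 higher and 4 lower (Tnnc2, Mylk2, Neb and Tcap) in undernourished offspring. Against the lone control AL array, the differences of the other called genes were -2.12 for Lmod2, -0.87 for Tnnc2, -0.63 for Tcap and -0.51 for Ttn. They were -0.505 for Myl1, -0.02 for Lmod3, 0.22 for Mybpc1, 0.60 for Ampd1 and 0.67 for Myl4. The 6 calls lost in undernourished offspring kept differences of -0.48 to -0.39 and, for Ampd1, 0.53 (adjusted p = 0.0557 to 0.0814). With the brain marker level as a covariate, 3 of the 10 calls held in control offspring (Lmod2, Neb and Tcap) and all 10 in undernourished offspring. With the slide as a random block, Lmod3, Mybpc1, Myl1 and Myl4 did not pass in control offspring, nor did Myl3 in undernourished offspring.

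**Figure D2:**
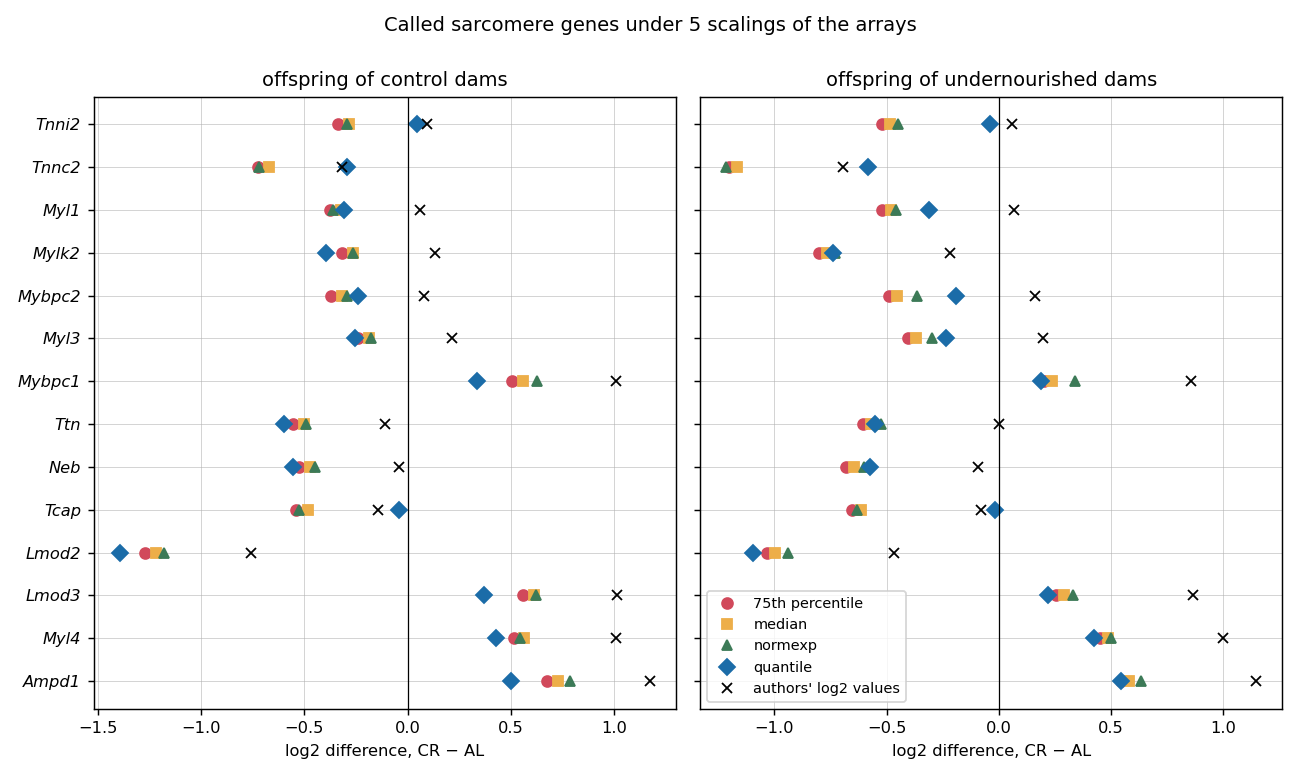
Log2 difference, CR minus AL, of the 14 genes called in either comparison, under 5 scalings of the same arrays (1 symbol per scaling). Ampd1 lies right of 0 and Lmod2 and Tnnc2 left of 0 under all 5, whereas Tnni2, Myl1, Mybpc2 and Myl3 in undernourished offspring lie left of 0 under 4 scalings and right of 0 in the authors' values.

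Among the fast genes, the calcium sensor troponin C showed the largest fall under the 75th percentile, whereas under quantile normalization the kinase gene Mylk2 fell further in undernourished offspring (-0.74 against -0.58) and stood lower in control offspring (-0.40 against -0.30). Tnnc2, fast troponin C, stood at 9.80, 10.24, 9.92 and 10.18 in control AL, 9.09, 9.18, 9.49 and 9.48 in control CR, 10.17, 10.03, 10.16 and 10.35 in undernourished AL and 9.35, 9.02, 9.23 and 8.31 in undernourished CR. Every CR array lay below every AL array of the same maternal diet, and undernourished CR replicate 4 lay lowest. Tnnc2 fell by 0.73 ± 0.20 in control offspring (SE of the fit, n = 4 arrays a group; limma adjusted p = 0.0113) and by 1.20 ± 0.20 in undernourished offspring (adjusted p = 0.00103). It was lower under all 5 scalings, but under quantile normalization the differences were -0.30 and -0.58, with adjusted p of 0.332 and 0.0826. Its RefSeq promoter window is shown because it is the member of the fast list with the largest difference in both comparisons under the 75th percentile. The window holds the 250 bases before the annotated start in assembly GRCm38.p6 (chr2:164779735-164779984, minus strand), and capitals mark E-boxes, the CANNTG motif bound by MyoD family factors, and MCAT elements (CATTCC or GGAATG), bound by TEAD factors.
Tnnc2: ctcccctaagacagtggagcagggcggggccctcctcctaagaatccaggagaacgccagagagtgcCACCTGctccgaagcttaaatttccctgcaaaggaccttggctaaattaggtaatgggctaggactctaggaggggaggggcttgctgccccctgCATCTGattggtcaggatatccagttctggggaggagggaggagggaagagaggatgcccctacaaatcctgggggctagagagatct

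The other fast troponins and tropomyosin moved less. Tnni2, fast troponin I, which holds the thin filament off, stood at 9.35, 9.84, 9.50 and 9.75 in control AL, 9.19, 9.23, 9.42 and 9.26 in control CR, 9.64, 9.77, 9.74 and 9.97 in undernourished AL and 9.14, 8.97, 9.50 and 9.43 in undernourished CR. The AL and CR arrays of undernourished offspring did not overlap, and Tnni2 fell there by 0.52 ± 0.14 (limma adjusted p = 0.0196). That call was lost without undernourished AL replicate 4 or undernourished CR replicate 1 or 2 (0.0553 to 0.0622), and under quantile normalization the difference was -0.04 (adjusted p = 0.764). The difference in control offspring was -0.34 ± 0.14 (adjusted p = 0.0868). Tnnt3, fast troponin T, which ties the complex to tropomyosin, stood at 9.42, 9.64, 9.51 and 9.75 in control AL, 8.34, 9.34, 9.38 and 9.16 in control CR, 9.78, 9.62, 9.60 and 9.70 in undernourished AL and 9.34, 8.89, 9.51 and 9.36 in undernourished CR. On this brighter Tnnt3 probe, control CR replicate 1 was the lowest array by far, and the differences of -0.52 ± 0.20 (adjusted p = 0.0599) and -0.40 ± 0.20 (adjusted p = 0.174) did not pass the threshold although the AL and CR arrays did not overlap in either. The dimmer Tnnt3 probe stood at 8.73, 8.83, 8.87 and 8.78 in control CR, and there the control AL and CR arrays overlapped. It differed by -0.13 ± 0.13 and -0.34 ± 0.13 (limma adjusted p = 0.453 and 0.0759). Tpm1, alpha-tropomyosin, read by its brighter probe, stood at 9.12, 9.50, 9.26 and 9.45 in control AL, 9.01, 9.05, 9.25 and 9.13 in control CR, 9.47, 9.37, 9.34 and 9.47 in undernourished AL and 9.09, 8.84, 9.36 and 8.95 in undernourished CR. Its differences of -0.23 ± 0.13 (adjusted p = 0.188) and -0.35 ± 0.13 (adjusted p = 0.0604) did not pass either.

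Among fast myosin parts, the light chain Myl1 and the kinase Mylk2 fell while the regulatory light chain Mylpf did not pass. Myl1, the fast essential light chain, stood at 8.48, 8.94, 8.66 and 8.87 in control AL, 8.25, 8.22, 8.54 and 8.44 in control CR, 8.76, 8.79, 8.86 and 9.07 in undernourished AL and 8.35, 8.07, 8.52 and 8.47 in undernourished CR. It fell by 0.38 ± 0.14 in control offspring, at an adjusted p of 0.0489 that held in 5 of the 16 fits without 1 array, and by 0.52 ± 0.14 in undernourished offspring (adjusted p = 0.0166). The second call was lost without undernourished AL replicate 4 or undernourished CR replicate 2 (0.0508 and 0.0538). Its dimmer probe, of another RefSeq transcript, differed by 0.10 ± 0.16 and 0.09 ± 0.16 and did not pass. With the mean of both probes Myl1 differed by -0.14 (adjusted p = 0.429) and -0.22 (adjusted p = 0.234), so that neither call held. The authors' values for Myl1 were 0.06 and 0.07 higher in CR. Mylk2, the kinase that phosphorylates the skeletal regulatory light chain, stood at 7.79, 7.77, 8.17 and 8.05 in control AL, 7.37, 7.80, 7.65 and 7.68 in control CR, 8.18, 8.13, 8.15 and 8.12 in undernourished AL and 7.45, 7.43, 7.56 and 6.92 in undernourished CR. In undernourished offspring all 4 CR arrays lay below all 4 AL arrays, a fall of 0.80 ± 0.15 (adjusted p = 0.00211), called in all 16 fits without 1 array. The difference in control offspring was -0.32 ± 0.15 (adjusted p = 0.112). Mylpf, the light chain that this kinase targets, stood at 8.98, 9.38, 9.31 and 9.66 in control AL, 9.11, 9.26, 9.39 and 9.23 in control CR, 9.49, 9.40, 9.16 and 9.37 in undernourished AL and 9.25, 9.08, 9.01 and 9.31 in undernourished CR. The Mylpf groups overlapped in both comparisons, with differences of -0.09 ± 0.14 (adjusted p = 0.678) and -0.19 ± 0.14 (adjusted p = 0.348).

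Mybpc2, fast myosin-binding protein C, which tethers the thick filament, stood at 8.88, 9.36, 9.06 and 9.32 in control AL, 8.61, 8.86, 8.95 and 8.72 in control CR, 9.27, 9.28, 9.28 and 9.38 in undernourished AL and 8.68, 8.61, 9.12 and 8.83 in undernourished CR. It fell by 0.49 ± 0.14 in undernourished offspring (limma adjusted p = 0.0214), and the difference of -0.37 ± 0.14 (adjusted p = 0.0514) in control offspring just missed the threshold. The call in undernourished offspring was lost without undernourished AL replicate 4 or undernourished CR replicate 1 or 2 (adjusted p = 0.0525 to 0.065), and under quantile normalization, at -0.19 (adjusted p = 0.148). The other fast genes sit at the Z-disc, and none of them passed by its brightest probe. Actn3, the fast-fibre alpha-actinin that cross-links actin, stood at 8.59, 8.91, 8.95 and 8.98 in control AL, 9.08, 8.96, 8.95 and 9.05 in control CR, 8.94, 8.87, 8.89 and 8.72 in undernourished AL and 8.85, 8.71, 9.18 and 8.69 in undernourished CR. Myoz1, fast myozenin, which binds calcineurin at the Z-disc, stood at 7.71, 7.95, 8.15 and 8.29 in control AL, 8.32, 8.32, 8.27 and 8.12 in control CR, 8.27, 8.30, 8.28 and 8.25 in undernourished AL and 8.23, 8.0, 8.24 and 7.81 in undernourished CR. The Myoz1 arrays of undernourished CR lay just below those of undernourished AL, and the Actn3 groups overlapped. The differences were 0.15 ± 0.13 and 0.00 ± 0.13 for Actn3 and 0.23 ± 0.13 and -0.20 ± 0.13 for Myoz1 (limma adjusted p = 0.206 to 0.988). The dimmer Myoz1 probe rose by 0.46 ± 0.16 in control offspring (limma adjusted p = 0.0332) and differed by -0.24 ± 0.16 in undernourished offspring (adjusted p = 0.294). Myoz3, the dimmest of the 39 genes, ranged from -4.39 to -3.30 and did not pass in either comparison.

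Of the 8 slow genes, 6 passed in neither comparison, as did 6 of the 11 fast genes. Of all genes, 32.3% were called in control and 20.4% in undernourished offspring, and the share that passed in neither is not given here. The spread of the slow genes between pools was wide. The median SD within a group was 0.47 for the 8 slow genes against 0.18 for the 11 fast genes, and the range within a group exceeded 1 log2 unit in 17 of 32 gene-by-group sets of slow genes against 3 of 44 of fast genes. The slow troponins and Myl2 followed each other from pool to pool, and their RefSeq promoter windows are printed for that reason. Each holds 250 bases before an annotated start in GRCm38.p6, with E-boxes and MCAT elements in capitals. The positions are chr7:4515976-4516225, minus strand for Tnnt1, chr1:135799171-135799420, plus strand for the more upstream of the 2 starts of Tnni1, chr14:31208062-31208311, plus strand for Tnnc1, and chr5:122092474-122092723, plus strand and chr5:122092939-122093188, plus strand for the 2 starts of Myl2.
Tnnt1: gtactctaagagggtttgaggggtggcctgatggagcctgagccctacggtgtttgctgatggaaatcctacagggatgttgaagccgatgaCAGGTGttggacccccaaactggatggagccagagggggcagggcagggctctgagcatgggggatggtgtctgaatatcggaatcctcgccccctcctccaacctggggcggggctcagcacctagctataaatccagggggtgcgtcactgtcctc
Tnni1: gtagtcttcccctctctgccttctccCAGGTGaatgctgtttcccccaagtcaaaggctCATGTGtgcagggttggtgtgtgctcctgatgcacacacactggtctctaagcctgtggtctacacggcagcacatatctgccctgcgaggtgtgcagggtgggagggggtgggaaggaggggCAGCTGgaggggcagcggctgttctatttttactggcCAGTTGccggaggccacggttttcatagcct
Tnnc1: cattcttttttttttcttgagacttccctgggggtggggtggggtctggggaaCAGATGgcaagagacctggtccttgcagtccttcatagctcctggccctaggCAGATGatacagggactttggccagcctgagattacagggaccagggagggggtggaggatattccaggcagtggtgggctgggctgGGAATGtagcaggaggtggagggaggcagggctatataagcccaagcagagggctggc
Myl2 first start: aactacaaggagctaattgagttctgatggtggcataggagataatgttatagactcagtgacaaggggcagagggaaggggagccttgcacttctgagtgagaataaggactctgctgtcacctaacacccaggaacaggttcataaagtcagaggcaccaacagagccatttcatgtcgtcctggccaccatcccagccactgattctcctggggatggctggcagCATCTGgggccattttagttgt
Myl2 second start: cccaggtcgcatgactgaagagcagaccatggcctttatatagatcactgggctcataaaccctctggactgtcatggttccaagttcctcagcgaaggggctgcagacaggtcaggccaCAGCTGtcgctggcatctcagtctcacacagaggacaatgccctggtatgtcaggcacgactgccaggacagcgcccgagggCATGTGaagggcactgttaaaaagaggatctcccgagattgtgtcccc

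Windows were available for 28 of the 39 genes, 35 windows in all. An E-box occurred in 31 of the 35, against 66.2% of 32851 windows of all genes, and an MCAT element in 8 of the 35, against 12.6%. CArG boxes, bound by SRF, occurred in 5 of the 35 (1.47% of all windows), and MEF2 sites in 2 (2.92%). All 8 slow genes and all 5 fast genes with a window had an E-box, and an MCAT element occurred in 2 of the 8 slow and 3 of the 5 fast genes. These matches describe letters in a window of this length on either strand, and say nothing of binding.

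Tnnt1, slow troponin T, stood at 5.06, 3.50, 4.95 and 5.40 in control AL, 3.93, 5.11, 4.03 and 4.89 in control CR, 4.62, 3.0, 5.18 and 5.27 in undernourished AL and 4.45, 4.29, 3.48 and 4.05 in undernourished CR. Tnni1, slow troponin I, stood at 2.65, 1.25, 2.70 and 3.01 in control AL, 1.47, 2.50, 1.53 and 2.11 in control CR, 2.36, 0.60, 2.79 and 2.78 in undernourished AL and 1.86, 1.67, 0.98 and 1.10 in undernourished CR. Tnnc1, troponin C of slow and cardiac muscle, stood at 2.68, 1.04, 2.71 and 2.99 in control AL, 1.49, 2.24, 1.55 and 2.38 in control CR, 2.28, 0.87, 2.39 and 2.70 in undernourished AL and 1.83, 1.58, 0.94 and 2.04 in undernourished CR. Replicate 2 was far below the other pools in both AL groups for all 3 genes, and in undernourished CR replicate 3 was lowest. Myl2, the slow and cardiac regulatory light chain, stood at 4.62, 2.52, 4.45 and 4.82 in control AL, 3.20, 4.42, 3.07 and 3.82 in control CR, 3.54, 1.15, 4.21 and 3.95 in undernourished AL and 4.03, 3.34, 2.43 and 3.80 in undernourished CR. The gap between the lowest and highest Myl2 pool was 8.31-fold within undernourished AL and 4.90-fold within control AL. The group means of Myl2 differed by -0.47 and 0.19 between CR and AL. Myoz2, slow myozenin, stood at 3.55, 2.61, 3.50 and 4.57 in control AL, 3.39, 4.47, 3.71 and 3.94 in control CR, 3.33, 2.80, 4.24 and 4.32 in undernourished AL and 4.70, 3.77, 3.33 and 5.08 in undernourished CR. For these 5 genes no comparison of diets passed: the differences in control offspring ranged from -0.50 (Tnni1) to 0.32 (Myoz2), and those in undernourished offspring from -0.73 (Tnni1) to 0.55 (Myoz2), with standard errors of 0.45 to 0.64. At that spread a difference of this size may be missed, and what size could be detected was not tested.

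Over all 8 slow members, replicate 2 was the lowest pool for 5 genes in control AL and for 6 in undernourished AL, replicate 1 for 6 in control CR and replicate 3 for 7 in undernourished CR. Some slow genes outside the list were low in the same pools, and others were not. Myh7, the slow myosin heavy chain, stood at 7.55, 5.89, 7.53 and 7.52 in control AL, 6.53, 7.67, 6.39 and 7.29 in control CR, 7.23, 5.11, 7.70 and 7.65 in undernourished AL and 6.42, 6.93, 5.90 and 6.30 in undernourished CR. Atp2a2, the calcium pump of slow fibres, stood at 2.86, 2.23, 2.78 and 2.88 in control AL, 1.61, 2.40, 1.46 and 2.12 in control CR, 2.41, 1.01, 3.11 and 2.67 in undernourished AL and 1.89, 1.78, 1.20 and 1.29 in undernourished CR. Both were lowest in replicate 2 of the AL groups and in replicate 3 of undernourished CR. Casq2, calsequestrin 2, which stores calcium in slow and cardiac muscle, stood at 0.17, 0.34, 0.35 and 0.68 in control AL, 1.58, 1.88, 2.25 and 1.28 in control CR, 0.41, 0.04, 0.53 and 0.34 in undernourished AL and 2.14, 1.70, 1.93 and 2.23 in undernourished CR, and was lowest in replicate 2 of undernourished AL but not of control AL, and not in replicate 3 of undernourished CR. Myh7 is near-identical in sequence to Myh6, and cross-hybridisation was not tested. On the arrays where the slow genes were lowest, the brain and skin marker medians were 0.71 and 1.42 (control AL replicate 2), -1.36 and -3.39 (undernourished AL replicate 2) and -6.44 and -3.63 (undernourished CR replicate 3), and their part in the slow genes' spread was not tested. The 8 heart markers had medians between -3.29 and -2.03 on all arrays. Myh6, 1 of the 8, stood far above these medians, at 1.75 to 4.56. Like Myh7, it was lowest in replicate 2 of both AL groups and in replicate 3 of undernourished CR.

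**Figure D3:**
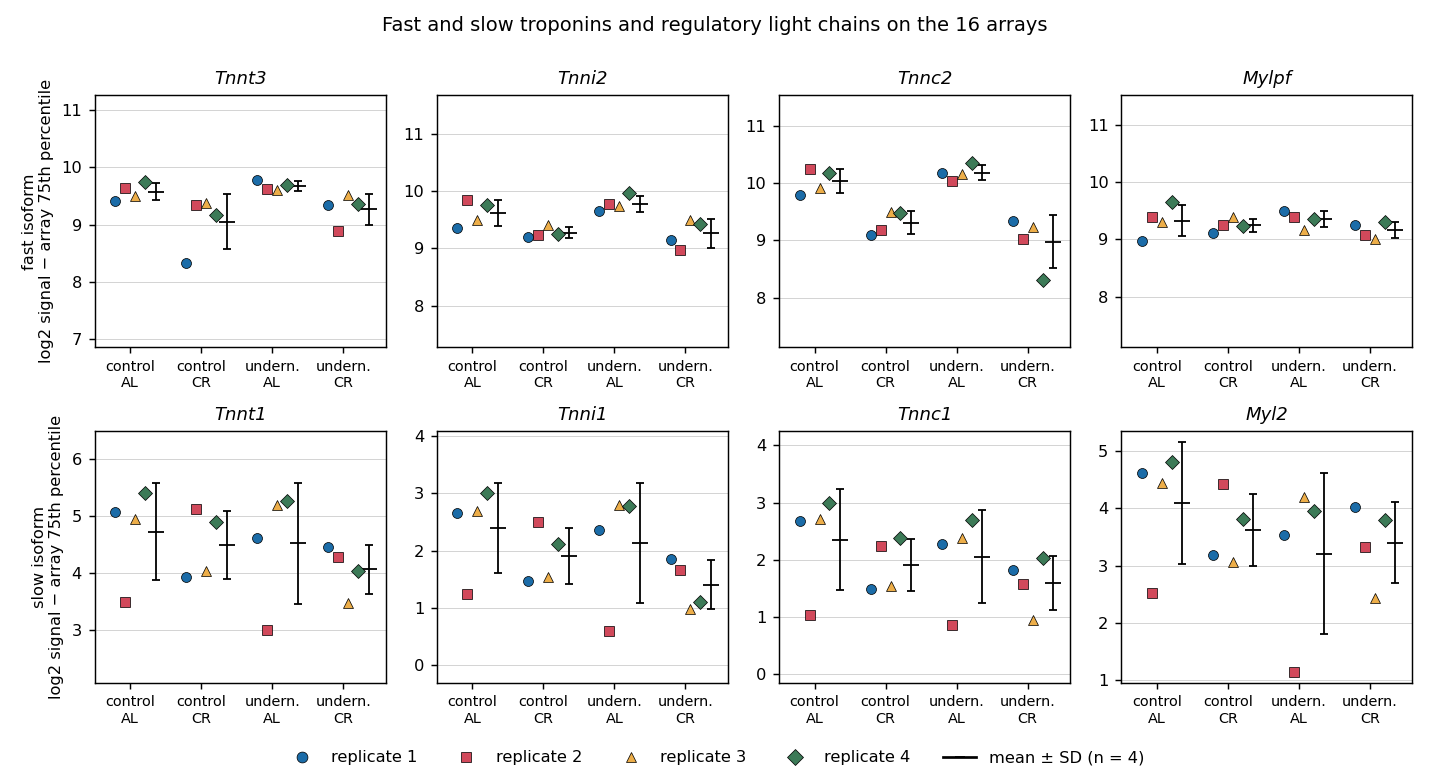
Level (log2 signal minus the array's 75th percentile) of 3 fast troponins and the fast light chain Mylpf (upper row) and of their slow counterparts (lower row) on the 16 arrays, with the mean and SD of each group of 4 pools at the right of its points. All panels span the same number of log2 units; the slow genes spread over up to 3.05 units within a group and replicate 2 lies lowest in both AL groups.

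By their brightest probes, the remaining 3 slow genes spread less, with a range of up to 0.87 log2 units within a group (Mybpc1, undernourished AL). Mybpc1 was still lowest where the slow troponins were in control CR (replicate 1), undernourished AL (replicate 2) and undernourished CR (replicate 3), but not in control AL. Myl3, the slow and cardiac essential light chain, read by its brighter probe, stood at 8.09, 8.43, 8.34 and 8.61 in control AL, 7.98, 7.99, 8.30 and 8.23 in control CR, 8.55, 8.46, 8.31 and 8.60 in undernourished AL and 8.04, 7.86, 8.23 and 8.17 in undernourished CR. It fell by 0.41 ± 0.13 in undernourished offspring (limma adjusted p = 0.0444), a call that held in 5 of 16 fits without 1 array and turned to a difference of 0.20 in the authors' values. It did not hold under quantile normalization either (-0.24, adjusted p = 0.0916), nor with the mean of both probes (-0.30, adjusted p = 0.174). The dimmer Myl3 probe differed by 0.09 ± 0.23 and -0.19 ± 0.23 (limma adjusted p = 0.783 and 0.598). In each group it was lowest in the pool in which the slow troponins were lowest, at -1.03 (control AL replicate 2), -0.51 (control CR replicate 1), -0.74 (undernourished AL replicate 2) and -0.82 (undernourished CR replicate 3). Mybpc1, slow myosin-binding protein C, stood at 5.89, 5.93, 6.24 and 6.40 in control AL, 6.47, 6.68, 6.67 and 6.67 in control CR, 6.29, 5.77, 6.54 and 6.64 in undernourished AL and 6.82, 6.42, 6.38 and 6.42 in undernourished CR. All 4 control CR arrays lay above all 4 control AL arrays, a rise of 0.51 ± 0.18 (adjusted p = 0.0454) that was called in 6 of 16 fits without 1 array. In undernourished offspring the Mybpc1 groups overlapped, at 0.20 ± 0.18 (adjusted p = 0.47). Tpm3, slow tropomyosin, stood at 2.41, 2.44, 2.02 and 2.36 in control AL, 2.61, 2.25, 2.52 and 2.62 in control CR, 2.19, 2.44, 2.15 and 2.42 in undernourished AL and 2.53, 2.52, 2.21 and 2.53 in undernourished CR, and did not pass in either comparison. Its dimmer probe stood at 1.89, 0.73, 2.25 and 2.37 in control AL, 1.0, 2.12, 1.08 and 1.86 in control CR, 1.76, 0.17, 2.24 and 2.28 in undernourished AL and 1.44, 1.47, 0.66 and 1.36 in undernourished CR. That probe was lowest in the pools in which the slow troponins were lowest, whereas the brighter probe was lowest there in undernourished CR (replicate 3) but not in either AL group.

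A ratio of 2 genes on 1 array is free of a factor that scales the whole array, so 9 pairs of isoforms were followed within arrays. They are the 3 troponin pairs, Mylpf/Myl2, Myl1/Myl3, Mybpc2/Mybpc1, Tpm1/Tpm3, Actn3/Actn2 and Myoz1/Myoz2. All are fast over slow except Actn3/Actn2, since Actn2 is the alpha-actinin of all fibres. That pair differed by -0.22 and -0.05 and is included in the summaries over 9 ratios. The log2 ratio of Mybpc2 to Mybpc1 was 2.99, 3.42, 2.82 and 2.92 in control AL, 2.14, 2.19, 2.28 and 2.05 in control CR, 2.98, 3.51, 2.75 and 2.73 in undernourished AL and 1.87, 2.19, 2.74 and 2.41 in undernourished CR. All 4 control CR arrays lay below all 4 control AL arrays, a difference of -0.87 ± 0.14 (SE, n = 4 per group). It was -0.58 under quantile normalization, -0.92 under normexp and -0.93 in the authors' values. The mean of a gene's probes could not differ here, since neither gene has more than 1 kept probe. In undernourished offspring the difference was -0.69 ± 0.26 and undernourished CR replicate 3 overlapped the AL arrays. The other 8 ratios overlapped between CR and AL in both comparisons. The median difference over the 9 ratios was -0.22 in control offspring (-0.87 to 0.39) and -0.38 in undernourished offspring (-0.75 to 0.21), with 2 of 9 ratios higher in CR in each. Quantile normalization, which is no single factor per array, gave 6 of 9 higher with a median of 0.07 in control offspring and 4 of 9 higher with a median of -0.04 in undernourished offspring. With the mean of a gene's probes, 4 of 9 were higher in each, with medians of -0.06 and -0.05. The troponin T ratio, Tnnt3 to Tnnt1, was 4.35, 6.15, 4.56 and 4.35 in control AL, 4.42, 4.22, 5.35 and 4.27 in control CR, 5.16, 6.62, 4.42 and 4.43 in undernourished AL and 4.89, 4.60, 6.03 and 5.32 in undernourished CR. Its differences of -0.29 ± 0.51 and 0.05 ± 0.60 were within the spread between pools.

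In the frame of the sarcomere, Neb, Ttn and Tcap fell in both comparisons under the 75th percentile. Neb, nebulin, stood at 7.91, 8.27, 8.19 and 8.52 in control AL, 7.66, 7.57, 7.75 and 7.81 in control CR, 8.31, 8.34, 8.29 and 8.51 in undernourished AL and 7.69, 7.48, 7.86 and 7.69 in undernourished CR. Ttn, titin, stood at 8.20, 8.13, 8.16 and 8.11 in control AL, 7.68, 7.54, 7.55 and 7.60 in control CR, 7.82, 7.72, 8.29 and 8.04 in undernourished AL and 7.51, 7.32, 7.49 and 7.12 in undernourished CR. Tcap, telethonin, which caps titin at the Z-disc, stood at 9.95, 10.22, 10.05 and 10.20 in control AL, 9.39, 9.64, 9.65 and 9.60 in control CR, 10.24, 10.10, 10.25 and 10.16 in undernourished AL and 9.63, 9.16, 9.69 and 9.65 in undernourished CR. In both comparisons all CR arrays lay below all AL arrays for each of the 3 genes. In control offspring Neb fell by 0.53 ± 0.13 (limma adjusted p = 0.00678), Ttn by 0.56 ± 0.13 (0.00446) and Tcap by 0.54 ± 0.13 (0.00489). In undernourished offspring the falls were 0.68 ± 0.13 (0.00276), 0.61 ± 0.13 (0.00512) and 0.65 ± 0.13 (0.00295). All 6 calls held in each of the 16 fits without 1 array. Without all arrays with most skin or liver signal, Ttn did not pass in undernourished offspring (-0.48, limma adjusted p = 0.0557), where Neb and Tcap did. In control offspring, against the 1 control AL array left, Ttn stood at -0.51 and Tcap at -0.63. The scaling separated them: Neb and Ttn were called lower under 4 of 5 scalings and stood at -0.04 and -0.11 in the authors' values for control offspring, whereas Tcap stood at -0.04 and -0.02 under quantile normalization.

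Nebulin and titin are long transcripts with several probes each, which were read one by one. All 5 Neb probes were called lower in control offspring, between -1.37 and -0.52, and all 5 in undernourished offspring, between -1.30 and -0.66, against 35.1% and 22.1% of 32081 probes called in either direction. Under quantile normalization, normexp and the median all 5 were called lower again, and in the authors' values all 5 stayed below 0, with 3 called in control and 2 in undernourished offspring. The Neb probe with the largest fall stood at 3.08, 2.91, 3.13 and 3.18 in control AL, 1.84, 1.59, 1.79 and 1.60 in control CR, 2.63, 2.67, 2.84 and 3.10 in undernourished AL and 1.78, 1.38, 1.60 and 1.31 in undernourished CR. Its CR and AL arrays were separated by far more than the spread within groups. Of the 8 Ttn probes, 7 were lower in each comparison and 4 and 6 of them were called. The eighth, A_51_P148509, stood at 6.76, 6.96, 7.22 and 7.44 in control AL, 8.05, 7.82, 8.03 and 7.92 in control CR, 7.15, 7.43, 7.55 and 7.61 in undernourished AL and 7.94, 7.84, 8.02 and 8.06 in undernourished CR. It rose by 0.86 ± 0.15 (limma adjusted p = 0.000542) and 0.53 ± 0.15 (0.0189), and it was called higher under all 5 scalings in both comparisons. Probe A_52_P569906 had no usable spot on control CR replicate 4, so its control CR mean rests on 3 arrays.

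**Figure D4:**
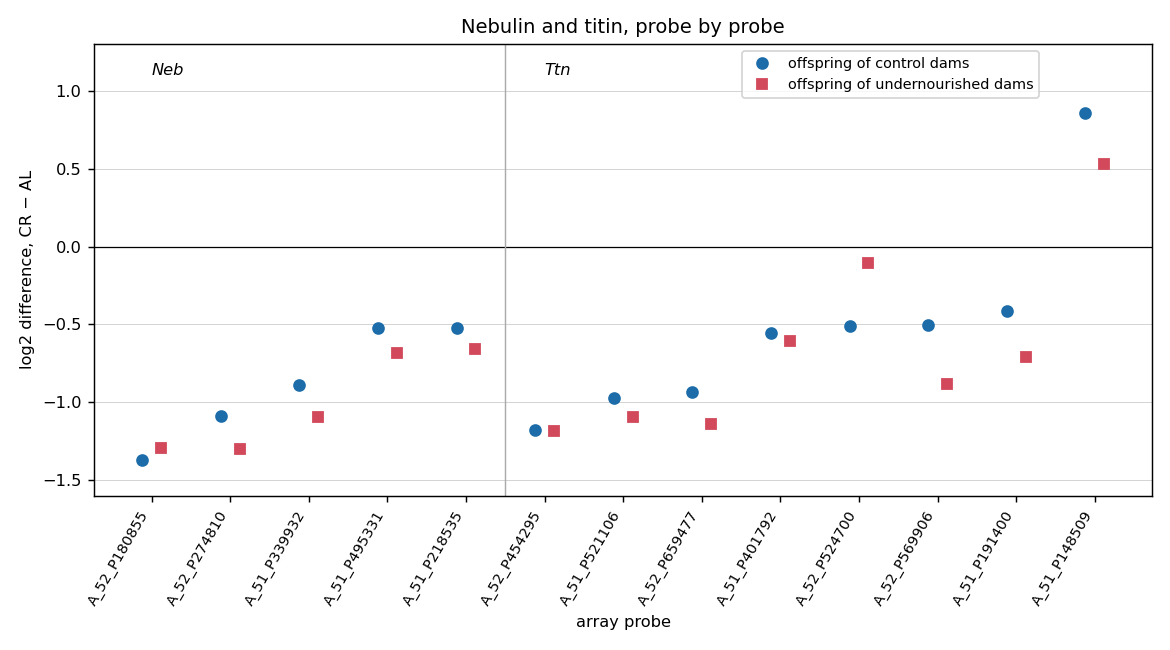
Log2 difference, CR minus AL, of each of the 5 Neb and 8 Ttn probes in offspring of control dams (circles) and of undernourished dams (squares), under the 75th percentile scaling. All Neb probes lie below 0, as do 7 Ttn probes, and the Ttn probe A_51_P148509 lies above 0 in both comparisons, under the authors' values too.

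Other genes also differed between their own probes, among them the fast gene Tpm1 and the frame genes Ldb3 and Tpm2. For Tpm1 the dimmer probe stood at 1.22, 1.24, 1.05 and 1.07 in control AL, 2.50, 2.16, 2.40 and 2.57 in control CR, 1.33, 1.24, 1.28 and 1.59 in undernourished AL and 2.39, 2.40, 2.21 and 2.21 in undernourished CR. It rose by 1.26 ± 0.12 (limma adjusted p = 1.01e-05) and 0.94 ± 0.12 (0.000158), while the brighter Tpm1 probe described above did not pass. Ldb3, also called cypher or ZASP, links alpha-actinin to the Z-disc and has 3 probes from 2 RefSeq transcripts. The 2 probes of one transcript differed by 0.36 ± 0.15 and 0.40 ± 0.16 in control offspring and did not pass. The probe of the other transcript stood at 3.90, 3.97, 3.75 and 4.34 in control AL, 2.90, 2.61, 3.19 and 3.14 in control CR, 3.84, 3.87, 3.72 and 4.38 in undernourished AL and 3.18, 2.70, 2.92 and 2.69 in undernourished CR, with every CR array below every AL array. It fell by 1.03 ± 0.18 (0.000744) and 1.08 ± 0.18 (0.00113). Tpm2, beta-tropomyosin, had a probe that fell by 0.94 ± 0.35 (0.049) and 1.37 ± 0.35 (0.0125) and a brighter one at 0.01 ± 0.17 and -0.48 ± 0.17 that did not pass. Of the 39 genes, 13 had more than 1 kept probe, and Ttn was the 1 gene with probes called in both directions. Which transcripts the probes read was not tested, since their sequences are not used here.

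The leiomodins moved apart. Lmod2 stood at 1.93, 1.81, 2.57 and 3.24 in control AL, 0.37, 1.25, 1.29 and 1.56 in control CR, 2.41, 2.29, 2.77 and 2.99 in undernourished AL and 1.55, 1.53, 0.64 and 2.60 in undernourished CR. It fell by 1.27 ± 0.39 in control offspring (limma adjusted p = 0.0227), the largest fall of the 10 called genes there, and all control CR arrays lay below all control AL arrays. That call was lost without control AL replicate 3 or 4 or control CR replicate 1 (0.0508 to 0.0757). In undernourished offspring its groups overlapped through CR replicate 4, at -1.03 ± 0.39 (adjusted p = 0.0758). Lmod3, mutated in nemaline myopathy, stood at 5.17, 5.25, 5.26 and 6.0 in control AL, 5.84, 6.10, 6.07 and 5.89 in control CR, 5.86, 5.54, 5.84 and 5.68 in undernourished AL and 6.14, 5.63, 5.85 and 6.31 in undernourished CR. It rose by 0.56 ± 0.19 (adjusted p = 0.033) in control offspring under all 5 scalings, but against control AL replicate 4 alone, the 1 control AL array left without those with most skin or liver signal and the one where Lmod3 was highest, its difference was -0.02. In undernourished offspring it differed by 0.25 ± 0.19 (adjusted p = 0.363). Actn2, the alpha-actinin of all fibres, stood at 5.72, 5.87, 6.08 and 6.91 in control AL, 6.11, 6.73, 6.71 and 6.52 in control CR, 6.23, 5.96, 6.60 and 7.28 in undernourished AL and 6.87, 6.48, 6.14 and 6.82 in undernourished CR, and did not pass. Acta1, skeletal alpha-actin, Myot, myotilin, and Mybph, myosin-binding protein H, did not pass in either comparison, with differences between -0.49 (Mybph, undernourished) and 0.02 (Myot, control).

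Ampd1, the muscle AMP deaminase that removes AMP during hard work, rose in both comparisons under all 5 scalings. It stood at 5.80, 6.12, 6.30 and 6.17 in control AL, 7.01, 6.60, 6.68 and 6.79 in control CR, 6.41, 6.29, 6.22 and 6.08 in undernourished AL and 6.75, 6.82, 7.09 and 6.51 in undernourished CR. Every CR array lay above every AL array of the same maternal diet. The rise was 0.67 ± 0.15 (adjusted p = 0.00307) in control and 0.54 ± 0.15 (adjusted p = 0.0179) in undernourished offspring by limma, a fold of 1.59 and 1.46. It was called in 16 and 14 of the 16 fits without 1 array, and lost in undernourished offspring without AL replicate 4 or CR replicate 3 (limma adjusted p = 0.0521 and 0.0582). Without the arrays with most skin or liver signal it differed by 0.60 (adjusted p = 0.185, with 1 control AL array left) and 0.53 (adjusted p = 0.0791), and did not pass. Myl4, the embryonic and atrial light chain, stood at 0.71, 0.83, 0.67 and 0.53 in control AL, 1.44, 1.11, 1.16 and 1.07 in control CR, 1.16, 0.43, 0.43 and 0.30 in undernourished AL and 1.21, 1.05, 1.21 and 0.65 in undernourished CR. It rose by 0.51 ± 0.18 (adjusted p = 0.0446) in control offspring, called in 3 of 16 fits without 1 array, and differed by 0.45 ± 0.18 (adjusted p = 0.0968) in undernourished offspring. Actc1, cardiac alpha-actin, did not pass. Myoglobin (Mb), muscle creatine kinase (Ckm) and its mitochondrial partner Ckmt2 differed by -0.11 to 0.06 in control and -0.20 to -0.02 in undernourished offspring, and none of the 3 passed.

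The stretch-responsive genes had a median SD within a group of 0.75, the highest of the 6 roles. Csrp3, muscle LIM protein, stood at 4.43, 4.76, 4.80 and 6.67 in control AL, 3.15, 4.52, 2.98 and 4.07 in control CR, 5.28, 4.98, 5.03 and 8.10 in undernourished AL and 4.50, 3.59, 4.83 and 5.0 in undernourished CR. Ankrd2, an ankyrin repeat protein of the titin I-band, stood at 4.41, 4.49, 4.69 and 6.45 in control AL, 2.99, 4.63, 3.24 and 4.11 in control CR, 5.04, 4.82, 5.11 and 7.75 in undernourished AL and 4.73, 3.69, 4.89 and 5.26 in undernourished CR. Ankrd1, its close relative, stood at 2.82, 3.20, 3.02 and 3.71 in control AL, 2.16, 2.60, 3.28 and 3.03 in control CR, 3.73, 3.34, 2.67 and 6.11 in undernourished AL and 2.94, 2.13, 2.80 and 1.98 in undernourished CR. Replicate 4 was the highest pool for all 3 genes in both AL groups. In undernourished AL it exceeded the next pool 7.04-fold for Csrp3, 6.24-fold for Ankrd2 and 5.22-fold for Ankrd1, and in control AL 3.66-fold, 3.38-fold and 1.42-fold. The small heat-shock protein Cryab, outside the list, was also highest there, 2.36-fold and 2.98-fold above the next pool. Both replicate 4 arrays lay on slide 2, beside replicate 3 arrays that did not stand out. None of the 3 genes passed in a comparison: Csrp3 differed by -1.48 ± 0.66 (adjusted p = 0.103) and -1.37 ± 0.66 (adjusted p = 0.159), Ankrd2 by -1.27 ± 0.64 (adjusted p = 0.145) and -1.04 ± 0.64 (adjusted p = 0.265), and Ankrd1 by -0.42 ± 0.55 (adjusted p = 0.595) and -1.50 ± 0.55 (adjusted p = 0.066). Their RefSeq promoter windows in GRCm38.p6 are shown as those of genes high in the same pools, marked as above, at chr7:48848052-48848301, minus strand for the more upstream of 2 Csrp3 starts, chr19:42035777-42036026, plus strand for Ankrd2 and chr19:36119845-36120094, minus strand for Ankrd1.
Csrp3: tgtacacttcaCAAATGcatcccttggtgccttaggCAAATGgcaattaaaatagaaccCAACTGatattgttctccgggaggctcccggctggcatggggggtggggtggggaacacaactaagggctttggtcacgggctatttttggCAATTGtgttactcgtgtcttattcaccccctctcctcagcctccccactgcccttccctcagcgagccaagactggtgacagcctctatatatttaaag
Ankrd2: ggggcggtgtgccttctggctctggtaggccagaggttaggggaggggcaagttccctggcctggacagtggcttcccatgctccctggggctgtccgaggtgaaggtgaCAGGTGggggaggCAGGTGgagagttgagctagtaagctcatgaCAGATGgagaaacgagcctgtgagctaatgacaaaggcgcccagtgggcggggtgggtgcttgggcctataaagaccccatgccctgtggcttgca
Ankrd1: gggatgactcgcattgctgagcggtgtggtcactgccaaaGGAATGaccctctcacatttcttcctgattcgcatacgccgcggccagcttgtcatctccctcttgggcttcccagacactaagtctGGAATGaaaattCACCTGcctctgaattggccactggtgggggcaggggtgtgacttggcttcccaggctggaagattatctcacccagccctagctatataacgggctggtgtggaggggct

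**Figure D5:**
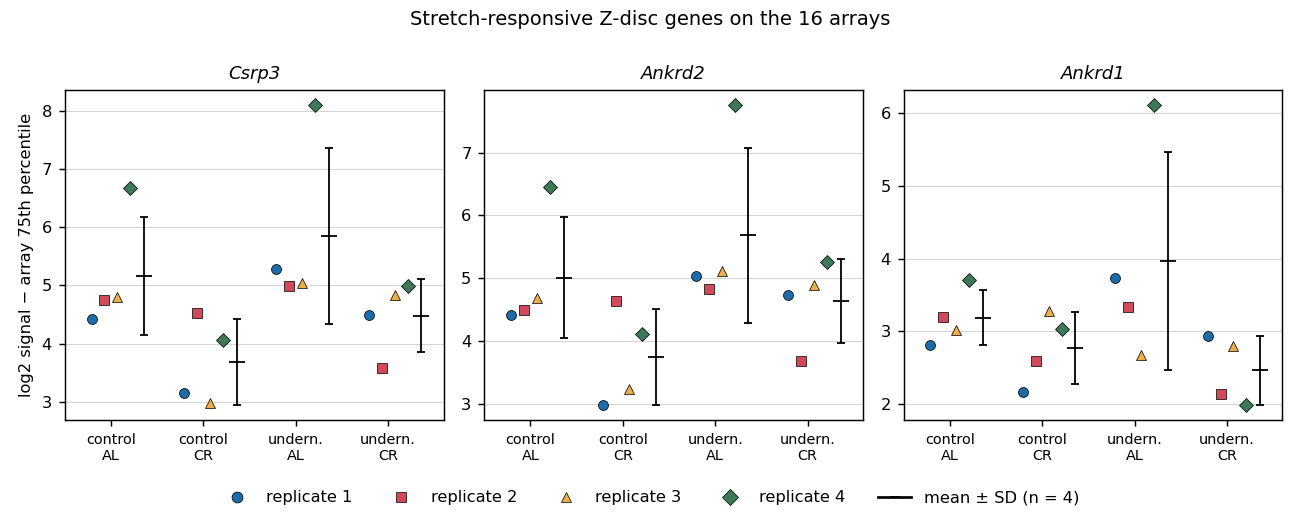
Level (log2 signal minus the array's 75th percentile) of Csrp3, Ankrd2 and Ankrd1 on the 16 arrays, with the mean and SD of each group of 4 pools; each panel has its own scale. Replicate 4 of both AL groups is the highest point of its group in all 3 panels.

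The study's second question was what maternal undernutrition left in the muscle of the offspring. In AL offspring 0 of the 39 genes were called by limma, against 0.0322% of all genes (0.0121% higher and 0.0201% lower), and in CR offspring 0 of 39, against 0% of all genes, where 712 genes had an unadjusted p under 0.05. The interaction of both diets called 0 of 39, against 0.00403% of all genes. The members' counts were 0 under all alternatives run. The background in AL offspring was not stable: 1968 genes (7.93%) were called with slide as a block and 2314 (9.32%) without control AL replicate 4, against 8 in the fit without either. In AL offspring the fast genes had a median difference of 0.14 (undernourished minus control), with 9 of 11 above 0, and the slow genes one of -0.11, with 3 of 8 above 0, against 0.07 over all genes. In CR offspring the medians were -0.09 for fast and -0.17 for slow genes, against -0.003 over all genes. Within slides, where both maternal diets were hybridised together with 2 arrays each, the fast genes' median was 0.15 on slide 1 and 0.05 on slide 2 in AL, and -0.08 and -0.06 on slides 3 and 4 in CR. The slow genes' medians were -0.20, 0.02, -0.08 and -0.30. The differences of single genes in AL ranged from -0.89 (Myl2, adjusted p = 0.478) to 0.78 (Ankrd1, adjusted p = 0.462). For Tnnt1 the difference was -0.21 ± 0.50 (adjusted p = 0.85) in AL and -0.42 ± 0.50 (adjusted p = 1) in CR, and for Tnnc2 0.14 ± 0.20 (adjusted p = 0.723) and -0.33 ± 0.20 (adjusted p = 1). By its brightest probe, Ttn was lower on all 4 undernourished CR arrays than on all 4 control CR arrays, a difference of -0.23 ± 0.13 (adjusted p = 1). Its 8 probes ran from -0.29 to 0.25 in this comparison, and the share of all genes separated in this way was not computed.

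The members were set beside 3 lists of genes that are not among them. Of 32 measured other sarcomere and Z-disc genes, 8 rose and 1 fell with calorie restriction in control offspring, and 4 rose and 1 fell in undernourished offspring. Of all genes, 17.3% were called higher and 15% lower in control offspring, and 10.5% and 9.85% in undernourished offspring. Tropomodulin Tmod1, which caps the thin filament, rose by 0.81 ± 0.16 (adjusted p = 0.00141) and 0.48 ± 0.16 (adjusted p = 0.0415), and Lmod1, the smooth muscle leiomodin, by 1.0 ± 0.27 (adjusted p = 0.0121) and 0.96 ± 0.27 (adjusted p = 0.0241) by limma. The smooth muscle markers, of 6 measured, had medians of 0.76 to 1.61 in control AL and 2.32 to 2.54 in control CR, and their part in Lmod1 was not tested. Nebl, nebulette, a relative of nebulin, fell by 1.69 ± 0.34 in control offspring (limma adjusted p = 0.00169), and Synpo2l rose by 1.59 ± 0.36 (adjusted p = 0.00391). Nebl was highest, at -3.78 and -3.71, in control AL replicates 1 and 2, which had the highest brain marker medians. The part of brain transcripts in it was not tested. Myom2, an M-band protein of fast fibres, fell by 0.50 ± 0.13 in undernourished offspring (0.0125), a difference of -0.01 under quantile normalization, and the myosin light chain Myl6b rose by 0.95 ± 0.28 (adjusted p = 0.0268). Myl6b was very dim, at -7.64 to -6.93 in undernourished AL and -7.03 to -6.05 in undernourished CR, which overlapped. Maternal diet and the interaction called 0 of the 32.

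Of 24 measured regulators of fibre type and sarcomere genes, 6 rose and 1 fell in control offspring (all genes: 17.3% and 15%), and 4 rose and 2 fell in undernourished offspring (10.5% and 9.85%). Myod1, the myogenic factor that binds E-boxes, stood at -1.87, -1.28, -1.95 and -1.22 in control AL, 0.24, 0.82, 0.86 and 1.08 in control CR, -0.64, -1.66, -2.64 and -0.88 in undernourished AL and 0.63, -0.49, 0.59 and -0.63 in undernourished CR. It rose by 2.33 ± 0.41 (adjusted p = 0.000733) and 1.48 ± 0.41 (adjusted p = 0.0196) by limma, with all CR arrays above all AL arrays in both. Mrtfa, a coactivator of SRF, rose by 1.52 ± 0.38 (adjusted p = 0.00701) and 1.77 ± 0.38 (adjusted p = 0.00534). Nfix rose by 0.85 ± 0.12 (adjusted p = 0.000215) and Sox6, a repressor of slow genes, by 0.72 ± 0.15 (adjusted p = 0.00228) in control offspring. Mef2a fell by 1.02 ± 0.14 (0.000306) and Myog, myogenin, by 1.18 ± 0.39 (0.043) in undernourished offspring. Mef2a was lower in control CR too, at -1.88 to -1.64 against -1.24 to -1.02 in control AL. Among 11 further fast and slow genes, 3 rose and 1 fell in control offspring (all genes: 17.3% and 15%) and 1 rose and 2 fell in undernourished offspring (10.5% and 9.85%). Casq2 rose by 1.36 ± 0.20 (adjusted p = 0.0002) and 1.67 ± 0.20 (adjusted p = 0.000118). Casq1 and Ryr1 rose by 0.85 ± 0.26 (adjusted p = 0.0217) and 0.51 ± 0.16 (adjusted p = 0.0244) in control offspring. Myh4, the fastest myosin heavy chain, fell by 0.57 ± 0.13 (0.00337) and 0.72 ± 0.13 (0.00161), and Myh1 by 0.47 ± 0.14 in undernourished offspring (0.0278). Under quantile normalization Myh4 differed by -0.01 and -0.03. Without the arrays with most skin or liver signal, which leaves 1 control AL array, Myod1, Mrtfa, Nfix, Sox6, Casq1, Ryr1 and Casq2 did not pass in control offspring, at differences of 1.96, 1.39, 0.62, 0.38, 0.46, 0.32 and 1.06 in that order. Myod1 and Mrtfa did not pass in undernourished offspring either, at 1.26 and 1.47.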

How the data were processed

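Total RNA of 16 tibialis anterior pools was labelled with Cy3 and hybridised to 1-colour Agilent mouse arrays, per the labels' protocols. The deposited intensity values come from the green processed signal, background-subtracted and detrended by Agilent Feature Extraction 10.5.1.1, per the file headers, and not normalized between arrays. Spot flags are the other deposited values used. The authors' deposited log2 values are centred per probe, by a normalization not given in the sources used here. They followed the scanner differences with a slope of 0.782 within and 0.831 between scan days, and their column medians ran from -0.101 to 0.0374.

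Outlier spots (53 to 176 per array) were left out, the log2 75th percentile (388 to 829 in signal) was subtracted, and probes were kept if well above background on 4 or more arrays (32081). Such spots made up 66.4% to 78.5%, and array number limits the precision. Probes were named through RefSeq (GRCm38.p6), 24844 of 41174 matching, and the brightest probe stood for a gene. Promoter windows are RefSeq's. The files lacked the mean signal planned for normexp (offset 50), so the median signal was used, with flagged local backgrounds set to the array median. The test was limma 3.58.1 (R 4.3.3) with 1 mean per group, two-sided, with Benjamini-Hochberg adjustment; ± after a difference is its standard error. The fit was tested on simulated data. Same-numbered AL pools, which also share a slide, deviated together (correlations 0.112 to 0.441), so the replicate block was run. Same-numbered CR pools, which share a slide too, had correlations of 0.0172 to 0.226. Those between AL and CR pools ran from -0.144 to 0.0764. Members, pairs and lists were chosen with earlier results of these data known. Named with values were all called members, both genes of the 9 pairs, and up to 4 called genes of each further list per comparison. Array values of the stretch genes, of single probes, and of Cryab, Casq2, Myh7, Myh6, Atp2a2, Mef2a and Myod1 were chosen after they were seen.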

Additional observations from a re-analysis of the deposited data

Results flagged for a closer look

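In 156 sets of 4 arrays (39 genes in 4 groups), 14 had 1 array far from the other 3 by Dixon's criterion; chance flags about 1 in 20. Csrp3 stood at 6.67 in control AL replicate 4 against 4.43 to 4.80 in the other pools, and at 8.10 in undernourished AL replicate 4 against 4.98 to 5.28. Ankrd2 did likewise, at 6.45 and 7.75 in the same pools. Tnnc1 and Myl2 were far down in control AL replicate 2, the first at 1.04 against 2.68 to 2.99 and the second at 2.52 against 4.45 to 4.82. In undernourished AL replicate 4, Mybpc2 was high at 9.38 (others 9.27 to 9.28) and Ckmt2 at 8.82 (8.48 to 8.51). Lmod3 was high in control AL replicate 4, at 6.0 against 5.17 to 5.26. Mybpc1 stood apart in control CR replicate 1 at 6.47, below 6.67 to 6.68, and in undernourished CR replicate 1 at 6.82, above 6.38 to 6.42. Tpm3 was low in undernourished CR replicate 3, at 2.21 against 2.52 to 2.53. Tcap was low in undernourished CR replicate 2, at 9.16 against 9.63 to 9.69, and Myl4 high in undernourished AL replicate 1, at 1.16 against 0.30 to 0.43. The causes were not tested.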

How the results depend on the processing

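In control offspring 10 members were called with calorie restriction. The count was 16 in the authors' log2 values (16 higher, 0 lower), 6 with slide as a random block, 3 with the brain marker level as a covariate, 1 without the 5 arrays of highest skin or liver signal (which leaves control AL replicate 4 alone), 5 without both control AL arrays of slide 1, and 5 to 11 without 1 array, with 5 or 6 when control AL replicate 2 or 3 or control CR replicate 1 or 4 was left out. In undernourished offspring the 10 became 16 in the authors' values, 17 under normexp, 4 without the skin or liver arrays, and 5 to 12 without 1 array, with 5 or 6 without AL replicate 4 or CR replicate 2. The fast genes' median of -0.32 in control offspring was -0.019 under quantile normalization, 0.13 in the authors' values, -0.14 with the mean of a gene's probes and -0.37 to -0.23 without 1 array. In undernourished offspring the median of -0.40 was -0.038 and 0.119 in the same order and, without 1 array, -0.48 to -0.28. Without 1 array the slow medians ran from -0.43 to -0.09 and -0.46 to -0.01 for calorie restriction. Without the skin or liver arrays the slow median for maternal diet in AL offspring was -1.07 (main -0.11), the distance from control AL replicate 4, the highest control AL pool for 7 of 8 slow genes, and the fast median of the interaction 0.041 (main -0.14). Tnni2, Myl1, Mybpc2 and Myl3 in undernourished offspring turned to 0.057, 0.068, 0.162 and 0.197 in the authors' values, Myl1 in control offspring to 0.061, and Lmod3 in control offspring was -0.021 against control AL replicate 4 alone. The replicate block gave 11 and 12 called members, 0 for maternal diet, and the same medians; it lost none of the calls and added Csrp3 in control and Lmod2 and Myl4 in undernourished offspring. Maternal diet and the interaction had 0 calls under all settings run. The cause of these changes was not tested. All 39 genes were well above background on all arrays. The highest log2 signal, 19.16, came close to the scanner's limit of 19.29 to 19.31, and compression of signals near it was not tested. Myoz3 was dim, at the 28.7th percentile of kept probes on average.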
